A study of Mus musculus with 21 samples.

Results

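Tumours of mice given lenvatinib alone were compared with tumours of mice given an antibody against PD-1 alone. The comparison used every sample of both single-agent arms, 10 of the 21 tumours profiled, with 5 in each arm, and covered 22206 probe sets, of which 19572 carry a gene name. All tumours grew from Hepa1-6, a mouse hepatoma cell line, implanted subcutaneously in C57BL/6J females aged 5 to 6 weeks, and treatment was assigned at random when a tumour reached 200 mm3. The lenvatinib arm received 10 mg/kg by mouth every day. The anti-PD1 arm received the clone J43 antibody at 10 mg/kg into the peritoneum every 3 days, for 5 doses. All animals were killed on day 13, which was 2 h after the last lenvatinib dose or 1 day after the last antibody dose. RNA of 30 mg of tissue from each tumour was measured on a Clariom S mouse array. The 6 placebo tumours, from mice given the drug vehicle with a polyclonal IgG, serve below as a common reference for both arms. The labels name no IgG for the lenvatinib arm and no vehicle for the anti-PD1 arm. The model has 1 tumour line, grown outside the liver, and each value describes a whole piece of tissue, in which fewer cells of a type and less RNA per cell cannot be told apart.

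Lenvatinib blocks the kinases of the VEGF and FGF receptors and of Kit, Ret and the PDGF receptor alpha. VEGF receptors on endothelial cells drive the growth and survival of tumour vessels. PD-1 is an inhibitory receptor of activated T cells, and its ligand PD-L1, the product of Cd274, is made by tumour and myeloid cells under interferon-gamma. Blocking PD-1 is known for releasing T cells, which then secrete interferon-gamma, while blocking VEGF signalling is known for pruning vessels and for altering the entry of immune cells.

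No gene passed the test between the arms. With limma, a linear model with a moderated test fitted over all probe sets, 0 of 22206 (0%) had a Benjamini-Hochberg adjusted p under 0.05, and the smallest adjusted p was 0.955. At an unadjusted p under 0.05, lenvatinib was higher at 344 probe sets (1.55%) and lower at 675 (3.04%). These 1019 probe sets compare with 1110 at 5% of all tested, and numbered 376 without anti-PD1 mouse 2, 1616 without anti-PD1 mouse 3 and 1710 without anti-PD1 mouse 5. All 5 lenvatinib tumours lay above all 5 anti-PD1 tumours at 45 probe sets (0.203%), and below them at 53 (0.239%). Over all probe sets the median log2 difference, lenvatinib minus anti-PD1, was 0.01, with 51.5% above 0. The median standard error was 0.25, and 95% of the differences lay between -0.85 and 0.71. The values that follow are therefore descriptions of these 10 tumours. A difference is on the log2 scale, given as lenvatinib minus anti-PD1 ± its standard error, and a level is a log2 signal.

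Some tumours stood apart before any comparison. The negative controls of the arrays had a median of 4.08, and array medians of all 21 tumours lay between 5.32 and 5.49. Hybridization controls, added to the sample just before hybridization, averaged over 11 on the arrays of lenvatinib mice 1 and 2 and anti-PD1 mouse 1, and less on the other 7 of the 10. A list score below is the average, over the genes of a list, of a tumour's level minus the 21-mouse mean of that gene. Skeletal muscle scores were 3.49 in lenvatinib mouse 4 and 3.05 in anti-PD1 mouse 2, and at most 1.14 in the other 8. Anti-PD1 mouse 2 also had the lowest T cell, macrophage and mitosis scores of the 10 tumours, at -1.64, -1.49 and -1.69. Of the hepatoma markers, Alb was at 8.41 or more in each of the 10 tumours, while the lowest values of Afp, Apoa1 and Hnf4a were 3.75, 4.35 and 4.55. The fibroblast marker Dcn and the macrophage marker C1qa were at 11.8 and 8.56 or more. The B cell marker Ms4a1 averaged 3.53 and 3.69 in the lenvatinib and anti-PD1 arms, below the negative-control median, and Cd79a averaged 5.58 and 5.05.

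**Figure D1:**
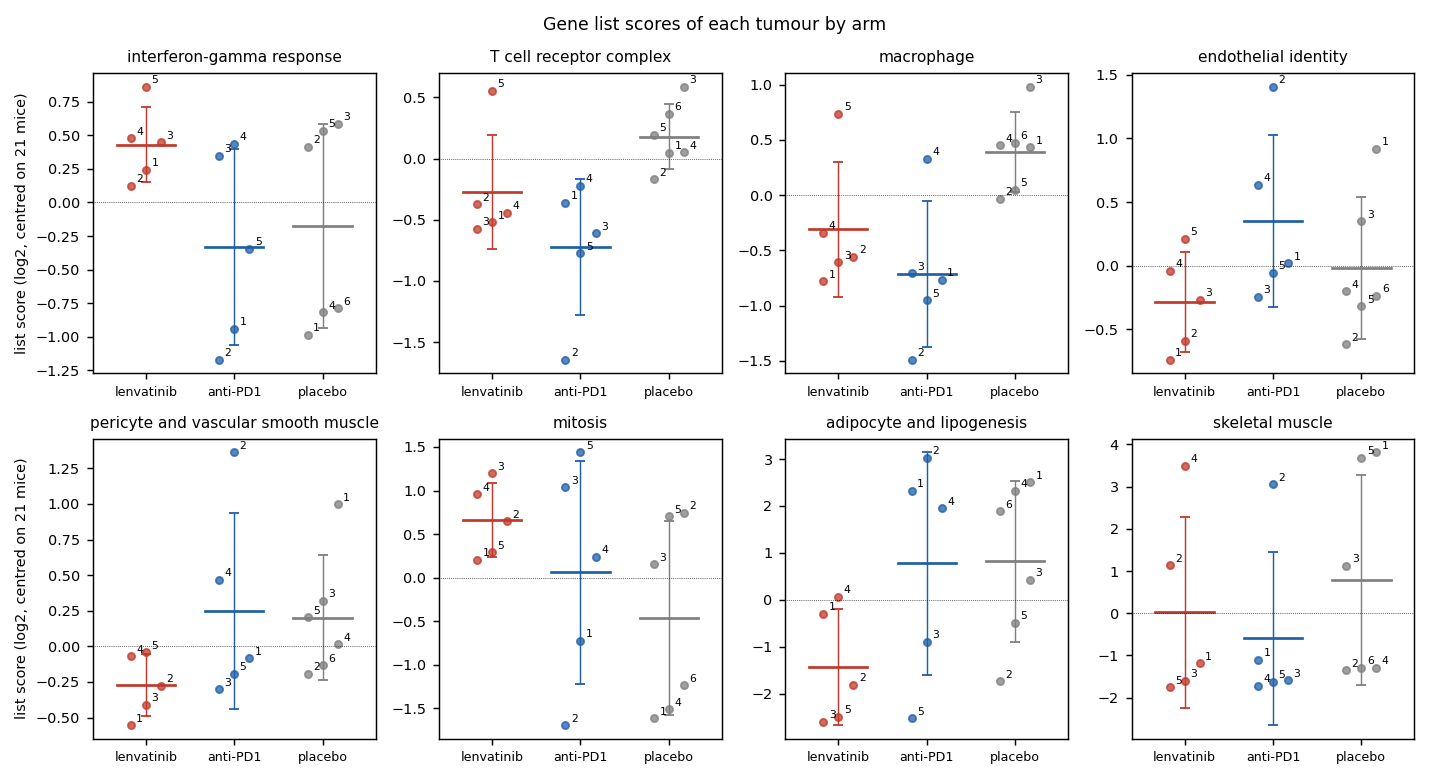
List scores (log2, centred on the 21 mice) of 8 gene lists in each tumour of the lenvatinib, anti-PD1 and placebo arms. Points are tumours with their mouse number, horizontal lines are arm means and bars are 1 SD; lenvatinib interferon-gamma scores lie between 0.13 and 0.86, while the anti-PD1 scores run from -1.17 to 0.44.

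Vessel genes stood lower under lenvatinib. All 17 endothelial identity genes had differences below 0, from -2.01 to -0.13, with a median of -0.46. Of these, 3 (against 3.04% of all probe sets) had an unadjusted p under 0.05 and 2 (against 0.239%) did not overlap between the arms. Scores of the list were -0.74, -0.59, -0.27, -0.04 and 0.21 in lenvatinib mice 1 to 5, and 0.02, 1.41, -0.24, 0.64 and -0.05 in anti-PD1 mice 1 to 5. Thus 3 lenvatinib tumours lay below every anti-PD1 tumour, and lenvatinib mice 4 and 5 lay within the anti-PD1 range. Placebo averaged -0.02 ± 0.55 (SD, n = 6), between lenvatinib at -0.28 ± 0.39 and anti-PD1 at 0.35 ± 0.67 (SD, n = 5 each).

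Nos3, the endothelial nitric oxide synthase, had levels of 4.11, 4.16, 4.53, 4.18 and 4.55 under lenvatinib and 5.62, 5.87, 4.78, 5.25 and 4.82 under anti-PD1. Every lenvatinib tumour lay below every anti-PD1 tumour, and the difference was -0.96 ± 0.24. The placebo levels of Nos3 ran from 4.53 to 5.61 with a median of 4.75. Claudin-5, Cldn5, seals the junctions between endothelial cells. Its levels were 3.96, 4.37, 5.39, 6.01 and 6.23 under lenvatinib, and 6.24, 8.99, 6.37, 8.09 and 6.35 under anti-PD1. The arms met without overlapping, at 6.23 and 6.24, and the difference was -2.01 ± 0.74. Against placebo, Cldn5 stood at -1.68 under lenvatinib and at 0.33 under anti-PD1. Tek, the angiopoietin receptor Tie2, stood at -1.34 ± 0.63 between the arms, with a level of 7.55 in anti-PD1 mouse 2 and at most 5.93 in the other 9 tumours. The endothelial transcription factor Erg stood at -0.87 ± 0.46.

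The list for mural cells, which wrap vessels, held the gene with the smallest p of the whole array. This was Mcam, the adhesion molecule CD146 of pericytes and endothelium, with levels of 4.89, 5.93, 6.39, 6.06 and 6.38 under lenvatinib. Under anti-PD1 its levels were 7.73, 8.56, 6.56, 7.56 and 7.0. The arms did not overlap, and the difference was -1.55 ± 0.36 (limma unadjusted p = 0.000291, adjusted p = 0.955). In the pericyte and vascular smooth muscle list 11 of 12 genes lay below 0 with a median of -0.39, and 3 (against 3.04%) had an unadjusted p under 0.05. The pericyte markers Rgs5, Cspg4 and Pdgfrb were not among those and stood at -0.29 ± 0.38, -0.15 ± 0.26 and -0.62 ± 0.44. The contractile genes Cnn1 and Myh11, made by smooth muscle, stood at -2.03 ± 0.75 and -0.68 ± 0.28. Cnn1 reached 7.30, 9.38 and 7.62 in anti-PD1 mice 1, 2 and 4, while the remaining 7 tumours had 5.57 or less.

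Genes that VEGF induces in sprouting tip cells were split, with 6 of 12 above and 6 below 0. Among them the basement membrane protein Nid2 stood at -0.79 ± 0.30 and the Notch ligand Dll4 at -0.95 ± 0.41. Hey1, a transcription factor that Notch induces in endothelium, was among the lowest genes overall. Its levels were 5.85, 5.70, 6.23, 6.16 and 6.10 under lenvatinib, and 7.96, 9.54, 5.98, 8.56 and 7.06 under anti-PD1. Anti-PD1 mouse 3 lay inside the lenvatinib range and the other 4 lay above it, and the difference was -1.82 ± 0.48. Tm4sf1, a membrane protein abundant on tumour endothelium, stood at -1.05 ± 0.29. The lymphatic endothelial list had a median of 0.12, with 5 of 7 above 0.

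The vessel differences moved with single anti-PD1 tumours. The endothelial score difference was -0.64 over all mice, -0.37 without anti-PD1 mouse 2 and -0.19 without anti-PD1 mice 2 and 4, a pair chosen after the data were seen. For the pericyte list these values were -0.52, -0.24 and -0.08. Without anti-PD1 mouse 1, whose adipocyte score lay above that of mouse 4, the differences were -0.72 for the endothelial and -0.605 for the pericyte list. The number of endothelial genes at an unadjusted p under 0.05 was 5 without anti-PD1 mouse 3, and that of pericyte genes was 1 without anti-PD1 mouse 2. On the whole array, probe sets lower at that threshold numbered 675 over all mice. They numbered 1027 without anti-PD1 mouse 3 and 245 without anti-PD1 mouse 2. Among arrays with bright hybridization controls, 2 against 1, the endothelial difference was -0.68, and among the others, 3 against 4, it was -0.47. Without mice 2 and 4, Nos3 stood at -0.77, Mcam at -1.16, Cldn5 at -1.13, Hey1 at -1.0 and Tek at -0.18. Adipocyte scores in anti-PD1 mice 1 to 5 were 2.33, 3.02, -0.89, 1.95 and -2.51, and in lenvatinib mice 1 to 5 -0.29, -1.81, -2.60, 0.07 and -2.49. The part of fat tissue in the vessel values was not tested.

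**Figure D2:**
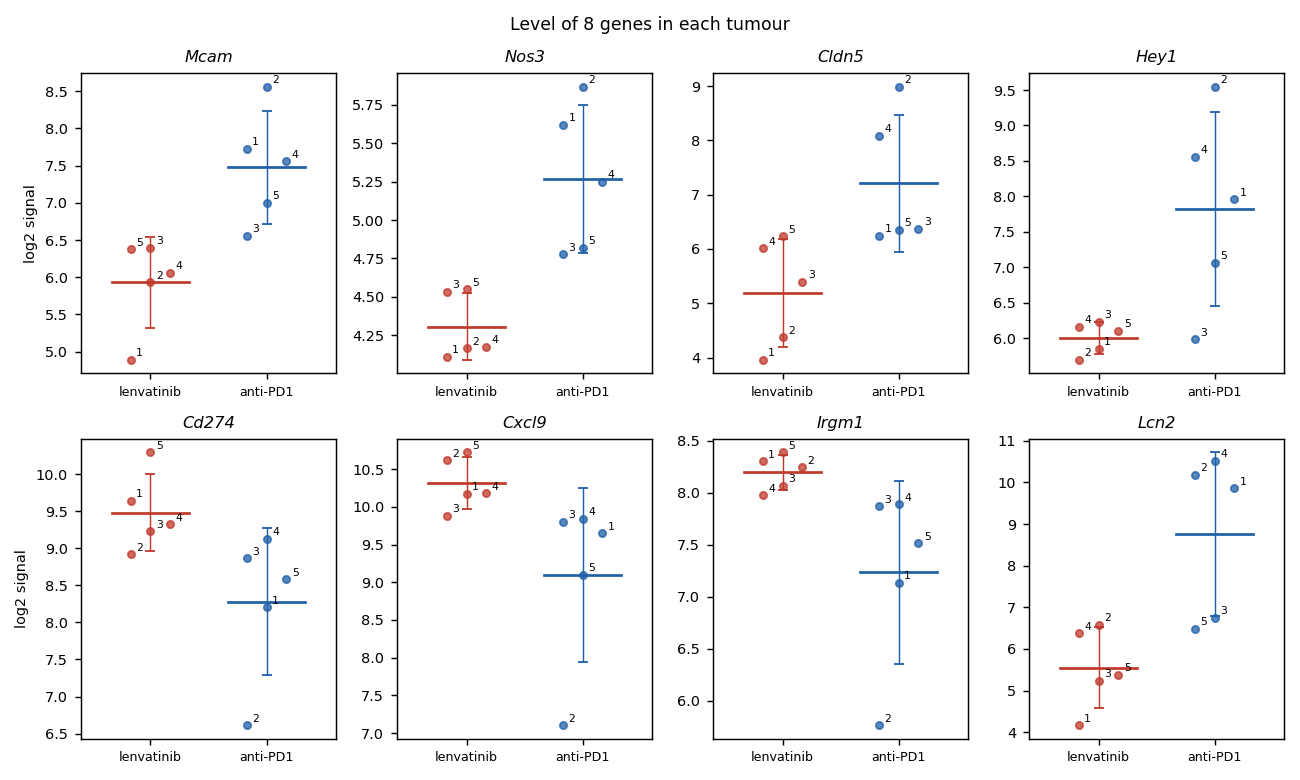
Level (log2 signal) of 8 genes in each lenvatinib and anti-PD1 tumour; points are tumours with their mouse number, lines are arm means and bars are 1 SD. Mcam, Nos3 and Cldn5 lie lower in all 5 lenvatinib tumours, Cxcl9 and Irgm1 lie higher in all 5, and Hey1, Cd274 and Lcn2 overlap between the arms.

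None of the 9 measured receptors that lenvatinib inhibits had an unadjusted p under 0.05. The main VEGF receptor Kdr had levels of 5.05, 5.12, 5.88, 6.21 and 6.45 under lenvatinib and 6.20, 8.91, 5.59, 7.68 and 6.52 under anti-PD1. The arms overlapped, and the difference was -1.24 ± 0.64, or -0.76 without anti-PD1 mouse 2. Flt1, the other VEGF receptor of blood vessels, stood at 0.18 ± 0.42, and Flt4, that of lymphatic vessels, at 0.12 ± 0.31. The sign of Flt1 turned without lenvatinib mouse 5 (-0.12) or anti-PD1 mouse 1 (-0.20), and that of Flt4 without anti-PD1 mouse 2 (-0.008) or 4 (-0.022). FGF receptors stood at -0.48 ± 0.36 for Fgfr1, -1.07 ± 0.58 for Fgfr2 and -0.34 ± 0.19 for Fgfr3. Fgfr4, the FGF receptor of hepatocytes, stood at 1.14 ± 0.68, with levels of 6.89 to 8.16 under lenvatinib and 4.25 to 8.14 under anti-PD1, and at 0.57 without anti-PD1 mouse 2. The stem cell factor receptor Kit stood at -1.23 ± 0.85 and the neurotrophic factor receptor Ret at 0.26 ± 0.16. Without anti-PD1 mice 2 and 4, Fgfr1, Fgfr2 and Kit stood at 0.074, 0.15 and 0.06. Pdgfra was not matched to a named probe set here.

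Ligands of these receptors had a median of -0.07, with 6 of 14 above 0. Hypoxia and glycolysis genes had 13 of 17 above 0, with a median of 0.20. Only 1 (against 1.55% of all probe sets) had an unadjusted p under 0.05. That was Ankrd37, a target of hypoxia-inducible factor, at 1.26 ± 0.59 (0.68 without anti-PD1 mouse 2). The glycolytic enzyme Pgk1 stood at 0.71 ± 0.36. Genes driven by the MAP kinase pathway below growth factor receptors had 11 of 16 above 0 and none at an unadjusted p under 0.05. In that list the transcription factor Etv4 stood at 0.81 ± 0.55 and the feedback inhibitor Spry2 at -0.57 ± 0.37.

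Interferon-gamma response genes stood higher under lenvatinib. Of 18 measured genes 17 had differences above 0, with a median of 0.86. Of the 18, 10 (against 1.55% of all probe sets) had an unadjusted p under 0.05 and 2 (against 0.203%) did not overlap. The gene below 0 was Ido1, a tryptophan-degrading enzyme named after its value was seen, at -0.80. Scores were 0.24, 0.13, 0.45, 0.48 and 0.86 in lenvatinib mice 1 to 5, and -0.94, -1.17, 0.35, 0.44 and -0.35 in anti-PD1 mice 1 to 5. Anti-PD1 mice 3 and 4 lay within the lenvatinib range, and mice 1, 2 and 5 lay below it. The arm means were 0.43 ± 0.28 and -0.33 ± 0.73 (SD, n = 5 each). Placebo averaged -0.18 ± 0.76 (SD, n = 6), with mice 1, 4 and 6 at -0.99, -0.82 and -0.79 and mice 2, 3 and 5 at 0.41, 0.59 and 0.53.

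Cd274, which encodes the PD-1 ligand PD-L1, had levels of 9.64, 8.92, 9.23, 9.32 and 10.29 under lenvatinib. Its levels under anti-PD1 were 8.20, 6.62, 8.86, 9.13 and 8.58. Only anti-PD1 mouse 4 reached into the lenvatinib range, and the difference was 1.20 ± 0.41 (limma unadjusted p = 0.00779, adjusted p = 0.955). Cxcl9, a chemokine that attracts activated T cells, had levels of 10.17, 10.62, 9.88, 10.18 and 10.72 under lenvatinib and 9.65, 7.11, 9.80, 9.84 and 9.10 under anti-PD1. Those groups did not overlap, and the difference was 1.22 ± 0.50. Irgm1, a GTPase that defends cells against intracellular microbes, had levels of 8.30, 8.24, 8.07, 7.98 and 8.39 under lenvatinib. It had 7.14, 5.76, 7.87, 7.89 and 7.51 under anti-PD1, all below the lenvatinib tumours, and differed by 0.96 ± 0.39. Gbp3, a guanylate-binding protein of the same defence, stood at 0.88 ± 0.34. Against placebo these 4 genes stood at 0.65, 0.72, 0.99 and 0.70 under lenvatinib, in the order Cd274, Cxcl9, Irgm1 and Gbp3, and at -0.55, -0.50, 0.03 and -0.18 under anti-PD1.

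Without anti-PD1 mouse 2 the 4 genes stood at 0.79, 0.72, 0.60 and 0.62 in the same order. The score difference of the list was 0.77 over all mice, 0.56 without that mouse and 0.74 without anti-PD1 mice 2 and 4, and the number of genes at an unadjusted p under 0.05 was 10, 1 and 4. It was 3 without lenvatinib mouse 5, 4 without lenvatinib mouse 3, 6 without lenvatinib mouse 4 and 5 without anti-PD1 mouse 1. Of all probe sets, 344, 131 and 227 were higher at that threshold in the first 3 settings. In the other 4 settings, in the order given, 439, 430, 467 and 431 were higher. The count of list genes was 1 without muscle-rich arrays, 3 with array weights in the fit and 3 without bright-control arrays. Of all probe sets, 165, 270 and 253 were higher there. Among the bright-control arrays the score difference was 1.12, and among the others it was 0.78. T cell receptor scores, from the cells that secrete interferon-gamma, were -0.36, -1.64, -0.61, -0.22 and -0.77 in anti-PD1 mice 1 to 5, and lay between -0.58 and 0.55 under lenvatinib. Their part in the interferon-gamma values was not tested.

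**Figure D3:**
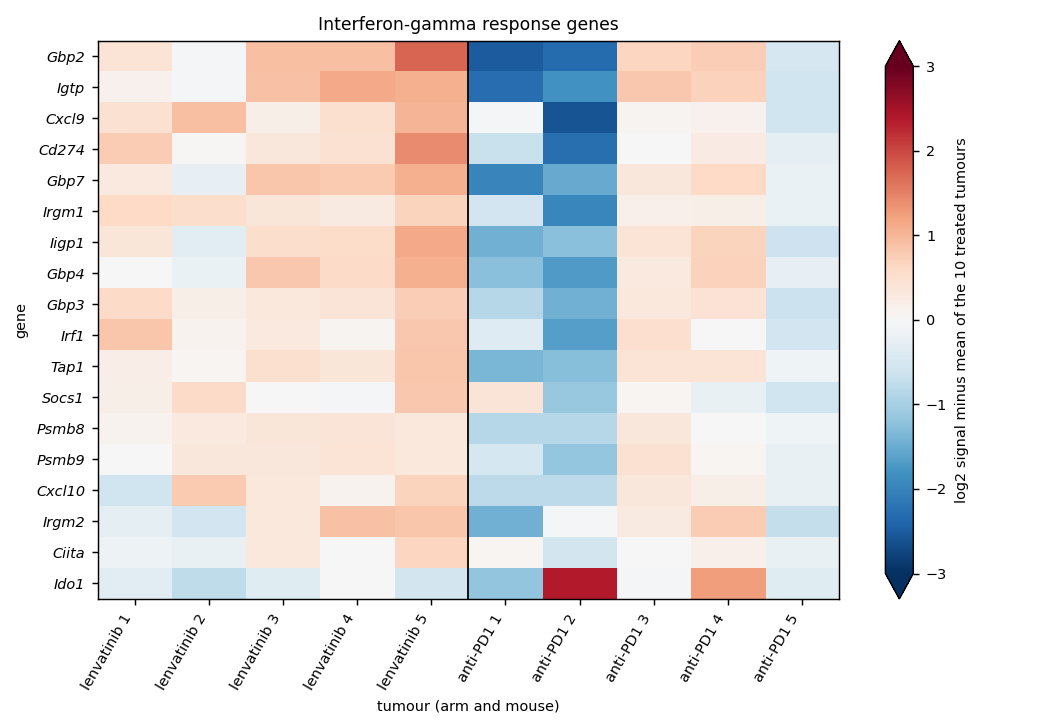
Levels of the 18 interferon-gamma response genes in each of the 10 tumours, as log2 signal minus the mean of the 10 (colour, cut at -3 and 3), with genes ordered by the difference between the arms. Low levels are seen in anti-PD1 mice 1 and 2 for most genes, while anti-PD1 mice 3 and 4, with list scores of 0.35 and 0.44, lie nearer the lenvatinib tumours.

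Interferon regulatory factors, which interferon-gamma induces, bind the ISRE element of promoters. Promoter windows of 250 bases before to 50 bases after the start were on hand for 14 of the 18 genes, as 16 windows from RefSeq on GRCm38.p6. They were searched on both strands, counting overlapping matches, for GAAA followed by 2 free bases and GAAA (the ISRE core). A match was found for 8 of the 14 genes, counting a gene once where any of its windows held one. Of all 32851 mouse windows of the same source, each counted singly and not by gene, 3.44% held one. The windows of 3 genes described above are shown, with matches in capitals. Each of Gbp3 (chr3:142559794-142560093, plus strand) and Irgm1 (chr11:48871371-48871670, minus strand) holds a pair of overlapping ISRE matches, while Cd274 (chr19:29367188-29367487, plus strand) does not hold these letters in this window.
Gbp3: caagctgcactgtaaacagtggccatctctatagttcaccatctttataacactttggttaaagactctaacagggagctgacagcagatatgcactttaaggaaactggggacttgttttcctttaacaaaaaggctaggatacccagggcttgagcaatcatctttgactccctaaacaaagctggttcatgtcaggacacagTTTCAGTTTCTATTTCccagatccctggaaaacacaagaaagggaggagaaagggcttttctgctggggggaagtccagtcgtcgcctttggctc
Irgm1: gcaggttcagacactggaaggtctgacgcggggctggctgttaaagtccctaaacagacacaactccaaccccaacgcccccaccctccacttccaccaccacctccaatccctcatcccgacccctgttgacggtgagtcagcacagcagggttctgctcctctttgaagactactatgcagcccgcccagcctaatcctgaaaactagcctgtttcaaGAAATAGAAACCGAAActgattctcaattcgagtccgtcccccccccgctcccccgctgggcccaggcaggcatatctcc
Cd274: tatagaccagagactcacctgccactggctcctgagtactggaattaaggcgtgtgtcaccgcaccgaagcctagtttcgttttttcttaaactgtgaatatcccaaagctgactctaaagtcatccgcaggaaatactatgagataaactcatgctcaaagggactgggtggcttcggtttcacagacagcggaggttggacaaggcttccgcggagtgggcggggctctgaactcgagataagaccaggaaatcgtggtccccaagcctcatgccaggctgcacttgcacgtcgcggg

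Other interferon and presentation genes were less uniform. In the type I interferon list 11 of 18 were above 0 with a median of 0.04. At an unadjusted p under 0.05 there were 2 (against 1.55% of all probe sets). These were Bst2, which tethers virus particles, at 0.92 ± 0.36 and the RNA sensor Oas1a at 0.74 ± 0.31. MHC class I presentation had 11 of 14 above 0 with a median of 0.22. Psmb8, a subunit of the immunoproteasome, stood at 0.59 ± 0.26 and the peptide transporter Tap1 at 0.78 ± 0.37. Both genes are also in the interferon-gamma list and counted there. The class I molecule genes H2-K1, H2-D1 and B2m, named after their values were seen, stood at 0.02 ± 0.38, -0.03 ± 0.32 and -0.02 ± 0.13. All 9 MHC class II genes lay above 0, with a median of 0.42 and none at an unadjusted p under 0.05, and H2-DMb1, which loads peptides, stood at 0.52 ± 0.34. Their score difference of 0.385 was 0.13 without anti-PD1 mouse 2 and 0.19 without lenvatinib mouse 5, and -0.05 among the bright-control arrays and 0.64 among the others.

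T cell and cytotoxic genes lay mostly above 0, within wide scatter. In the T cell receptor list 11 of 12 were above 0, with a median of 0.43. At an unadjusted p under 0.05 there was 1 (against 1.55% of all probe sets). That gene, the CD3 gamma chain Cd3g, had levels of 8.07, 8.80, 7.68, 8.06 and 9.60 under lenvatinib and 7.83, 4.65, 7.86, 8.56 and 7.27 under anti-PD1. The arms overlapped widely, and the difference was 1.21 ± 0.56, or 0.56 without anti-PD1 mouse 2. Cd3g stood below placebo in both arms, at -0.82 under lenvatinib and -2.03 under anti-PD1. All 14 genes of CD8 and cytotoxic granules lay above 0 with a median of 0.44. Among them Cst7, an inhibitor of granule proteases, stood at 1.28 ± 0.42, Gzmb, the killer protease granzyme B, at 1.04 ± 0.59, and the granule protein Nkg7 at 0.87 ± 0.46.

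The levels of Cst7 were 8.52, 8.33, 7.41, 7.78 and 9.48 under lenvatinib, against 6.70, 6.76, 6.69, 8.55 and 6.43 under anti-PD1. Anti-PD1 mouse 4 lay among the lenvatinib tumours, and the other 4 lay below them. NK cell genes had 8 of 9 above 0, with the receptor Klre1 at 0.59 ± 0.34, and CD4 and regulatory T cell genes had 7 of 9 above 0. The score difference of the T cell receptor list was 0.45, and it was 0.22 without anti-PD1 mouse 2 and 0.24 without lenvatinib mouse 5. It was -0.09 among the bright-control arrays and 0.66 among the others.

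The receptor itself, Pdcd1, had levels of 4.38, 5.21, 6.28, 6.36 and 6.96 under lenvatinib and 5.23, 3.63, 5.59, 6.31 and 5.56 under anti-PD1. The arms overlapped, and the difference was 0.58 ± 0.53, or 0.17 without anti-PD1 mouse 2. Pdcd1lg2, which encodes the second ligand, stood at 0.98 ± 0.76, or 0.22 without that mouse. Other inhibitory receptors had 7 of 10 above 0, with Tox, a transcription factor of exhausted T cells, at 0.70 ± 0.36. All 11 costimulatory genes lay above 0, with the ligand Cd86 at 0.78 ± 0.39. B cell genes had 7 of 11 and plasma cell genes 6 of 9 above 0. Jchain, the joining chain of secreted antibodies, stood at 1.6 ± 1.06.

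Myeloid and inflammatory genes also lay mostly above 0. Of 15 macrophage genes 14 were above 0 with a median of 0.40, and none had an unadjusted p under 0.05. The integrin Itgam stood at 0.81 ± 0.41 and the adaptor Tyrobp at 0.80 ± 0.42. Scores of the macrophage list were -0.78, -0.56, -0.61, -0.34 and 0.74 under lenvatinib and -0.77, -1.49, -0.71, 0.33 and -0.95 under anti-PD1. The placebo scores, from -0.03 to 0.98, lay above 4 of 5 tumours in each arm. Without lenvatinib mouse 5 the score difference of 0.41 was 0.14, and without anti-PD1 mouse 2 it was 0.21.

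Among genes of suppressive macrophages the galectin Lgals3 stood at 0.83 ± 0.35, the arginine-degrading enzyme Arg1 at 1.79 ± 0.92 and the elastase Mmp12 at 1.24 ± 0.70. The Mmp12 difference was 0.17 without anti-PD1 mouse 2, whose level of 6.86 compares with 11.41 to 12.89 in the other 9 tumours. Dendritic cell genes had 10 of 13 above 0 and 4 (against 1.55% of all probe sets) at an unadjusted p under 0.05. These were the chemokine Ccl17 at 1.16 ± 0.43, the integrin Itgax at 1.42 ± 0.62, the lineage factor Irf8 at 0.82 ± 0.37 and Xcr1, a receptor of cross-presenting cells, at 0.68 ± 0.33. Inflammatory genes had 11 of 15 above 0 with a median of 0.44. Nos2, the inducible nitric oxide synthase, stood at 1.92 ± 0.78, Il1rn, the antagonist of interleukin 1, at 1.80 ± 0.74 and the chemokine Ccl4 at 0.90 ± 0.39. Without anti-PD1 mouse 2, or without lenvatinib mouse 5, none of the 15 had an unadjusted p under 0.05, and 1 of 13 dendritic cell genes had. The dendritic cell count was also 1 without lenvatinib mouse 2 or anti-PD1 mouse 1, and 2 without lenvatinib mouse 4. Of all probe sets, 344 were higher at that threshold over all mice, 131 without anti-PD1 mouse 2 and 439 without lenvatinib mouse 5. The number was 246 without lenvatinib mouse 2, 431 without anti-PD1 mouse 1 and 467 without lenvatinib mouse 4. Lymphocyte-attracting chemokines and receptors had 11 of 12 above 0, with Cxcl16 at 0.71 ± 0.41.

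Neutrophil genes had 11 of 12 above 0, with the lectin receptor Clec4d at 1.54 ± 0.65 and the resistin-like Retnlg at 1.09 ± 0.47, or 0.64 without anti-PD1 mouse 2. The score difference of the list was 0.21, and it was 0.008 without anti-PD1 mouse 2 and 0.0025 without lenvatinib mouse 5. The exception was Lcn2, the iron-sequestering protein lipocalin-2, which neutrophils and glandular epithelia make. Its levels were 4.17, 6.58, 5.24, 6.38 and 5.38 under lenvatinib and 9.86, 10.18, 6.74, 10.51 and 6.49 under anti-PD1. Anti-PD1 mouse 5 lay just inside the lenvatinib range, and the difference of -3.21 ± 0.81 was the widest among the single genes named. Against placebo Lcn2 stood at -3.45 under lenvatinib and -0.24 under anti-PD1. Elane, the elastase of neutrophil granules, did not overlap between the arms and stood at -0.79 ± 0.21, with levels of 4.91 to 5.37 and 5.43 to 6.28. Mast cell genes had 7 of 9 below 0.

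The 3 anti-PD1 tumours high in Lcn2 also had the highest mammary gland scores of the 10 tumours. That list of 13 genes was set up after the values were seen. Its scores were 0.29, 0.91, -0.33, 1.28 and -0.58 in anti-PD1 mice 1 to 5, from -0.65 to -0.30 under lenvatinib and from -0.44 to 0.92 in placebo. Of its genes 11 of 13 were lower in lenvatinib. Csn3, which encodes a milk casein, had levels of 7.24, 8.31, 6.75, 9.28 and 7.07 under anti-PD1, and 6.24 to 6.58 under lenvatinib. It thus lay higher in all 5 anti-PD1 tumours and not only in those 3. The secreted inhibitor Wfdc18 had 10.93, 9.20, 6.50, 10.57 and 4.92 under anti-PD1 and 4.93 to 6.33 under lenvatinib. Anti-PD1 mouse 1 was high in only part of the list. Its Ltf of 4.55 and Elf5 of 3.86 compare with 3.47 to 4.58 and 4.14 to 5.55 under lenvatinib. Casein Csn2 was at 7.45 in anti-PD1 mouse 4 and between 3.19 and 4.31 in the other 9 tumours, where many values were below the negative-control median. The whey gene Wap lay between 5.04 and 5.74 in all 10. The same tumours carried high levels of Wfdc2, a relative of Wfdc18 made by epithelia, which did not overlap between the arms and stood at -1.25 ± 0.33. The part of mammary tissue in these differences was not tested.

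**Figure D4:**
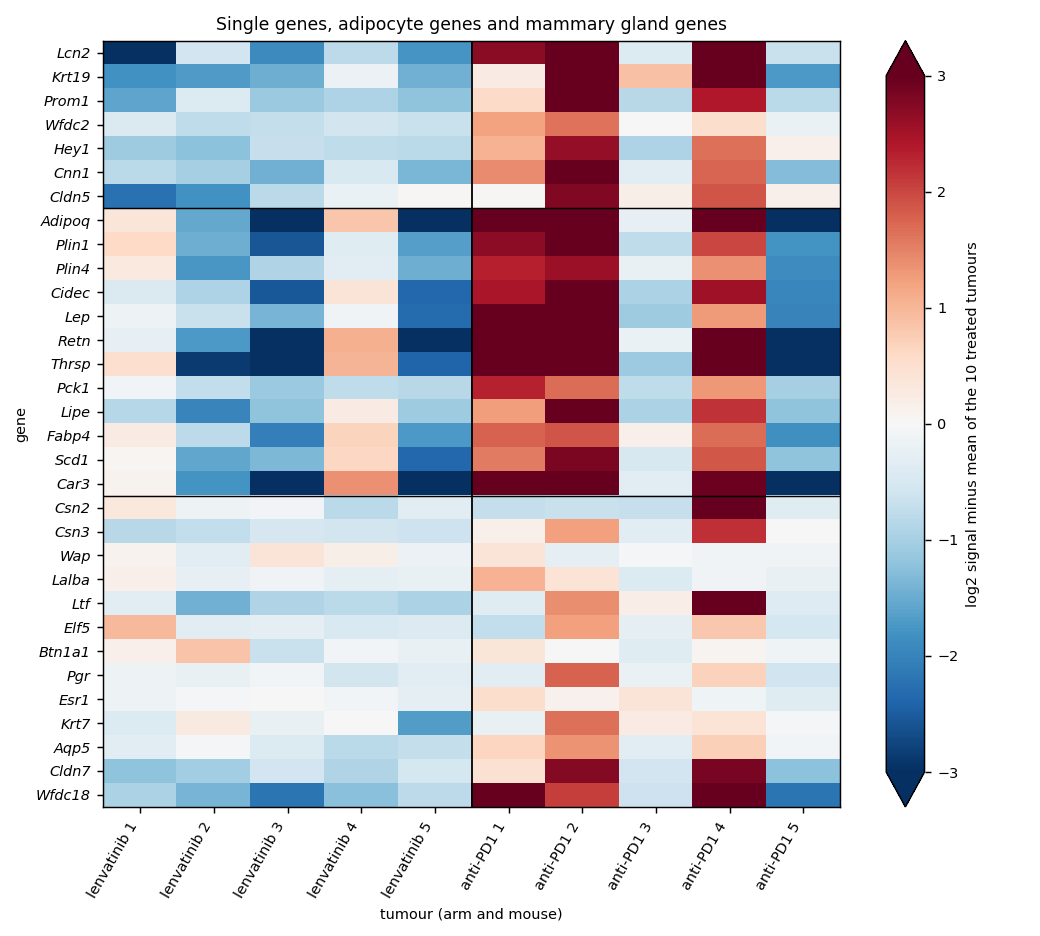
Levels of 7 single genes, 12 adipocyte genes and 13 mammary gland genes in the 10 tumours, as log2 signal minus the mean of the 10 (colour, cut at -3 and 3). Most high values of the 3 blocks fall in anti-PD1 mice 1, 2 and 4. In the mammary block Wap shows little spread and Btn1a1 is highest in lenvatinib mouse 2. Anti-PD1 mouse 1 is not high there in Csn2, Ltf or Elf5.

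Genes of the tumour cells differed among tumours of 1 arm. The hepatocyte score had an SD of 0.32 under lenvatinib, 0.86 under anti-PD1, 0.82 in placebo and 0.76 in the combination of both agents. Hepatocyte lineage genes had 18 of 22 above 0 with a median of 0.35, and none had an unadjusted p under 0.05. The clotting factor gene F2 stood at 1.12 ± 0.61, the thyroid hormone carrier Ttr at 1.51 ± 0.82 and the fibrinogen chain Fgb at 1.46 ± 0.81. List scores were 0.28 to 1.01 under lenvatinib and -0.22, -1.26, 0.93, 0.04 and 0.67 in anti-PD1 mice 1 to 5. The score difference of 0.60 was 0.27 without anti-PD1 mouse 2. Liver transcription factors had 7 of 13 above 0, with Foxa3, which opens liver chromatin, at 1.09 ± 0.58 and its relative Foxa1 at -1.27 ± 0.46. The levels of Foxa1 were 3.44 to 4.71 under lenvatinib and 4.69, 7.68, 4.36, 5.72 and 4.21 under anti-PD1, and without anti-PD1 mouse 2 it stood at -0.68.

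Cytochrome P450 and drug metabolism genes had a median of 0.01. In that list Cyp2e1, which liver and fat tissue both express, stood at -2.26 ± 1.06 and Cyp3a13 at 1.67 ± 0.93. Wnt target genes, which beta-catenin switches on in many hepatomas, had 10 of 12 above 0 with a median of 0.26. The feedback inhibitors Znrf3 and Nkd1 stood at 1.20 ± 0.70 and 1.35 ± 0.85, and Apcdd1, another inhibitor, at -1.29 ± 0.63. Oncofetal and stem-like genes had 9 of 13 below 0 with a median of -0.097. Of the 9, 5 (against 3.04% of all probe sets) had an unadjusted p under 0.05. The hepatoma marker Afp stood at 1.79 ± 1.38. Gpc3 and Igf2, named after their values were seen, stood at -0.06 ± 0.46 and 0.14 ± 0.25. Krt19, a keratin of bile ducts and other glands, stood at -2.63 ± 0.90 and the stem cell antigen Prom1 at -2.09 ± 0.72. Mest, an imprinted gene, stood at -0.92 ± 0.35 and the epithelial adhesion molecule Epcam at -0.85 ± 0.36. Krt19 reached 9.58 and 8.57 in anti-PD1 mice 2 and 4, while the remaining 8 tumours had 6.35 or less. Without these 2 mice Krt19 stood at -1.11 and Prom1 at -0.69, and 1 gene of the list had an unadjusted p under 0.05. That count was 3 without any of lenvatinib mice 2 and 5 and anti-PD1 mice 2 and 4 in turn. Of all probe sets, 675 were lower at that threshold over all mice and 357 without anti-PD1 mice 2 and 4. Without each of those mice in turn, in the order given, 501, 695, 245 and 493 were lower.

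Proliferation genes lay above 0 without any single gene standing clear of the scatter in mitosis. All 19 mitosis genes were above 0, with a median of 0.62 and 0 at an unadjusted p under 0.05 in limma. Ube2c, which targets cyclins for destruction, stood at 0.89 ± 0.63 and Birc5, the inhibitor of apoptosis survivin, at 0.93 ± 0.66. Mitosis scores were 0.21, 0.65, 1.20, 0.96 and 0.29 under lenvatinib and -0.73, -1.69, 1.04, 0.24 and 1.44 under anti-PD1. Anti-PD1 mice 3 and 5 lay at the upper end of all 10 tumours or near it, and mice 1 and 2 at the lower end. The score difference of 0.60 was 0.16 without anti-PD1 mouse 2, 1.15 among the bright-control arrays and 0.56 among the others. DNA replication genes had 18 of 19 above 0, with the S-phase cyclin Ccne2 at 1.09 ± 0.48. The p53 target list had 9 of 12 above 0 and the YAP and TAZ list 8 of 13, in which the transcription factor Tead1 stood at 0.69 ± 0.32.

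Stress genes of the integrated response had 12 of 16 above 0, with the transcription factors Atf4 and Ddit3 at 0.40 ± 0.18 and 0.70 ± 0.36. Cholesterol synthesis genes had 8 of 15 below 0 and 4 (against 3.04% of all probe sets) at an unadjusted p under 0.05, all lower. These included the pathway enzymes Hmgcs1 and Sc5d at -0.93 ± 0.37 and -0.67 ± 0.26 and the pathway's brake Insig1 at -1.0 ± 0.47. Against placebo, Hmgcs1 stood at 0.28 under lenvatinib and 1.21 under anti-PD1. The number of cholesterol genes at an unadjusted p under 0.05 was 1 without anti-PD1 mouse 2, 0 without lenvatinib mouse 5, and 2 without lenvatinib mouse 1, 3 or 4 or anti-PD1 mouse 4. Of all probe sets, 675 were lower at that threshold over all mice, 245 without anti-PD1 mouse 2 and 695 without lenvatinib mouse 5. The number was 530, 640 and 713 without lenvatinib mouse 1, 3 or 4, and 493 without anti-PD1 mouse 4. Respiratory chain genes had 12 of 15 below 0 with a median of -0.27.

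Stromal genes had list medians below 0. Fibroblast and matrix genes had 14 of 18 below 0 with a median of -0.36, with the fibroblast protease Fap at -0.98 ± 0.51 and the microfibril protein Mfap5 at -0.78 ± 0.45. Elastic fibre genes had 7 of 9 below 0, with Fbln5, which assembles elastin, at -1.0 ± 0.52. The TGF-beta list had 7 of 12 below 0 with a median of -0.05, and its Ltbp1, which stores the latent ligand in the matrix, stood at -0.72 ± 0.32. Without anti-PD1 mouse 2, Fap stood at -0.50 and Fbln5 at -0.64. The fibroblast score difference was -0.32 over all mice and -0.03 without anti-PD1 mice 2 and 4. It was -0.03 with array weights and -0.07 without bright-control arrays. For the elastic fibre list these values were -0.35, -0.15, -0.01 and -0.06.

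The adipocyte list had the median farthest from 0 of the 48 lists. All 12 lay below 0, from -3.05 to -1.42, with a median of -2.07, and 8 (against 3.04% of all probe sets) had an unadjusted p under 0.05, though none separated the arms. The hormone resistin, Retn, had levels of 7.76, 6.28, 4.52, 9.07 and 4.74 under lenvatinib and 11.94, 12.16, 7.80, 11.15 and 4.57 under anti-PD1. Anti-PD1 mice 1, 2 and 4 lay above every lenvatinib tumour, mouse 3 within their range and mouse 5 near its lower end. The differences were -3.05 ± 1.41 for Retn, -1.95 ± 0.85 for the hormone-sensitive lipase Lipe, -2.36 ± 1.05 for the lipid droplet protein Cidec and -1.82 ± 0.80 for the desaturase Scd1. No adipocyte gene had an unadjusted p under 0.05 without anti-PD1 mouse 1, 2 or 4, or without lenvatinib mouse 3 or 5, 1 had without lenvatinib mouse 2, and 12 had without anti-PD1 mouse 5. On the whole array, 675 probe sets were lower at that threshold over all mice, and 1127 without anti-PD1 mouse 5. The number was 784, 245 and 493 without anti-PD1 mouse 1, 2 or 4, and 640, 695 and 501 without lenvatinib mouse 3, 5 or 2. The count of adipocyte genes was also 0 with array weights, without bright-control arrays and without muscle-rich arrays. Of all probe sets, 428, 318 and 280 were lower there. Against placebo the list stood at -2.24 under lenvatinib and -0.04 under anti-PD1.

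Other neighbouring tissues showed no separation. Skeletal muscle genes had 14 of 16 above 0, with the fast-fibre protein Actn3 at 0.91 ± 1.5, which was -0.27 without lenvatinib mouse 4 and 1.86 without anti-PD1 mouse 2. Epidermal keratin genes had 8 of 12 below 0, with the basal keratin Krt14 at -1.20 ± 0.62, and all 5 Schwann cell genes lay below 0, with Sox10, their lineage factor, at -0.90 ± 0.47. In the erythroid list Alas2, which starts haem synthesis in red cell precursors, had levels of 5.61 to 5.93 under lenvatinib and 6.47, 6.80, 5.75, 6.24 and 6.79 under anti-PD1. It stood at -0.65 ± 0.22, and the other 3 measured genes of that list were above 0.

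**Figure D5:**
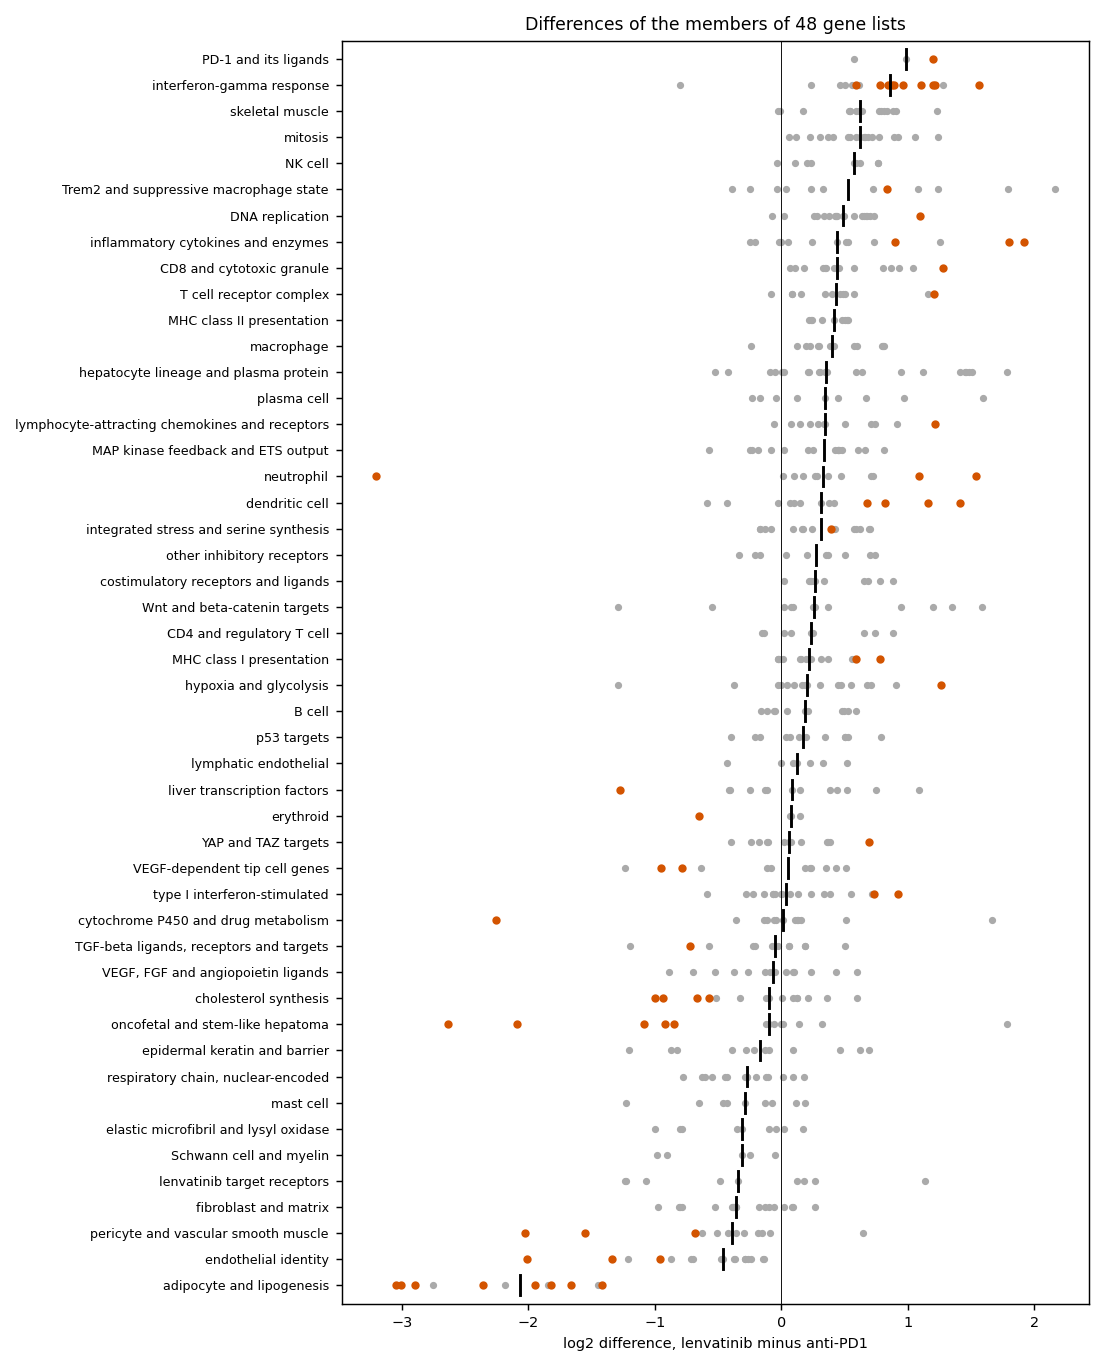
Log2 differences, lenvatinib minus anti-PD1, of the measured genes of 48 lists, ordered by the list median (black tick); orange points had an unadjusted p under 0.05 and grey points did not. The adipocyte list, with a median of -2.07, lies farthest to the left, and the interferon-gamma list holds 10 orange points to the right of 0.

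The remaining genes with the smallest p-values belonged to no list. On the lower side, Bmp3, a secreted member of the bone morphogenetic protein family, did not overlap between the arms, with levels of 3.94 to 4.72 and 4.84 to 6.00 and a difference of -1.01 ± 0.24. Slc18b1, a vesicular polyamine transporter, also did not overlap, at -1.80 ± 0.47. Fah, the last enzyme of tyrosine breakdown, stood at -1.14 ± 0.29. Without anti-PD1 mouse 2 these 3 stood at -0.89, -1.33 and -0.86.

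On the higher side, Adam8, a metalloprotease of activated myeloid cells, had levels of 8.62, 7.92, 7.92, 8.66 and 10.45 under lenvatinib and 6.38, 5.39, 8.05, 8.87 and 6.62 under anti-PD1. Anti-PD1 mice 3 and 4 lay within the lenvatinib range, and the difference was 1.65 ± 0.54. Ly96, the partner of the endotoxin receptor, stood at 0.91 ± 0.30, with levels of 5.68 to 6.27 against 4.20 to 5.86. B4galt5, an enzyme of glycolipid synthesis, stood at 1.21 ± 0.40, or 0.79 without anti-PD1 mouse 2. Tmem71, a membrane protein, did not overlap between the arms, with levels of 6.81 to 7.52 and 5.45 to 6.66 and a difference of 0.90 ± 0.25. The histone chaperone partner Hirip3 and the plasma protease inhibitor Pzp both stood at 0.90, with standard errors of 0.24 and 0.27. Mc1r, the melanocortin receptor, Pramel43 and the sodium exchanger Slc9b2 stood at 0.81 ± 0.25, 0.52 ± 0.17 and 0.61 ± 0.20. Hirip3, Pzp, Mc1r, Pramel43 and Slc9b2 had anti-PD1 means below the negative-control median, so their differences rest on dim signals. The same limit holds for some genes lower under lenvatinib. Lenvatinib means of Tek, Prom1 and Foxa1, at 3.68, 3.97 and 4.06, lay below that median of 4.08. Those of Fap, Krt19 and Nos3, at 4.10, 4.16 and 4.31, lay near it. On arrays without bright hybridization controls Hirip3 stood at 0.47, Mc1r at 0.26, Pramel43 at 0.28 and Slc9b2 at 0.37.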

How the data were processed

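The authors deposited log2 signals, for which the submitters' processing notes name RMA and oligo. Their versions and the genome build were not given in the sources used here. RMA corrects background, quantile-normalizes arrays and summarizes probes, so levels are relative and a shift shared by most genes is removed. Of 29129 rows, 6923 were controls and were dropped, which left 22206 probe sets to test. The platform annotation named 19572 of them, for 19505 genes, and left 2634 unnamed here; for the 55 genes with several probe sets, the brightest stood for the gene in the lists. Depth does not apply to arrays, whose number sets the precision. Each array is 1 mouse, and p-values reflect variation among mice.

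Arms came from the sample labels. The fit was limma (version 3.58.1, R 4.3.3), lmFit and eBayes on 4 arm means over 21 arrays, with the contrast lenvatinib minus anti-PD1 and two-sided p-values adjusted by Benjamini-Hochberg over all 22206. Dim probe sets were kept. The comparison, the 48 gene lists and the naming rule were chosen with earlier results of these data known. The rule took the 10 genes per direction with the smallest p (none passed), leaving out provisional names and probe sets below the negative-control median in both arms, up to 4 members per list, and all receptors of lenvatinib with PD-1 and its ligands. Alternatives were eBayes with trend and robust settings, a filter at the 40th percentile, cyclic loess, array weights, a fit of both arms only, the mouse number as a block, hybridization controls as a covariate, leaving out bright-control or muscle-rich arrays, and leaving out each mouse. Leaving out anti-PD1 mice 2 and 4 was added after the data were seen. Dixon's test looked for a tumour far from the others of its arm.

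The fit was tested on simulated data, drawn 10 times, each with known changes put into 201 of the 22206 probe sets. For lenvatinib against anti-PD1, 54.2% of the 2-fold changes, 90.9% of the 4-fold and 99.3% of the 8-fold were recovered, 0 with a wrong sign. False calls numbered 0.5 in the median draw and 54 at most. The changed probe sets were drawn at random from all, where the median standard error in the data was 0.25. Their scatter was that left around the 4 arm means, which is narrower than the spread between mice. Cldn5 at -2.01 ± 0.74 and Lcn2 at -3.21 ± 0.81 had wider standard errors and limma adjusted p of 0.955. The shares recovered therefore do not hold for genes that vary this much between mice.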

Additional observations from a re-analysis of the deposited data

Results flagged for a closer look

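Dixon's test was run on 314 groups of 5 tumours, for 48 list scores and 109 genes in each arm, and in 22 of these groups, spread over 7 of the 10 tumours, a tumour lay far from the others of its arm. Chance flags about 1 in 20 groups, and lists that share genes or tumours are not independent. Lenvatinib mouse 5 lay above its arm in the T cell receptor list (score 0.55), the NK cell list (0.69) and the macrophage list (0.74). It also had the highest Nkg7 (level 9.35), Klre1 (7.37), Itgam (9.37), Ccl4 (7.90) and Cxcl16 (11.64). Anti-PD1 mouse 2 lay below its arm in the inflammatory list (score -1.50), Cd3d (level 4.02), Mmp12 (6.86), Retnlg (4.29), Cxcl9 (7.11) and Atf4 (8.99), and above it in the skeletal muscle list (score 3.05) and Actn3 (level 10.0).

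The other tumours were lenvatinib mouse 4 for Actn3 (11.83) and Krt19 (5.30), lenvatinib mouse 2 for the epidermal keratin list (score 1.02), lenvatinib mouse 1 for Pgk1 (9.01), lenvatinib mouse 3 for Ddit3 (8.90, below its arm) and anti-PD1 mouse 4 for Cst7 (8.55).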

How the results depend on the processing

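Under all 20 alternatives 0 probe sets passed an adjusted p of 0.05. The number at an unadjusted p under 0.05 was 1019; it was 1561 with the hybridization control covariate, 571 without bright-control arrays, 445 without muscle-rich arrays and 584 without anti-PD1 mice 2 and 4, a setting chosen after seeing the data. Leaving out 1 mouse in turn gave 376 to 1710. With the mouse number as a replicate block it was 1057. The cause of the shifts in these counts was not tested. Same-numbered mice of the arms correlated at 0.56, -0.09, 0.40, 0.26 and 0.04. Among the 5 mice of the other arm the own number ranked 1, 3, 2, 2 and 3 from the highest correlation. The labels name no pairing, and these values do not settle whether the numbers pair the mice. Of 960 list score differences under the alternatives, 26 in 13 lists took the opposite sign, and all moved by less than the spread between mice. When 1 mouse was left out this limit could not be passed, because an arm mean then shifts by only part of that spread. The trend and robust settings, the fit of both arms only and the replicate block left the score differences unchanged. Staying within the spread therefore does not show that the lists are stable. Of 2170 gene values, 12 in 8 genes were reversed. Without anti-PD1 mice 2 and 4, Fgfr1 stood at 0.074, Fgfr2 at 0.15, Kit at 0.06, Spry2 at 0.035 and Flt4 at -0.24. Flt4 stood at -0.086 without muscle-rich arrays and from -0.022 to 0.34 when 1 mouse was left out. Flt1 ranged from -0.20 to 0.39 and Actn3 from -0.27 to 1.86 in that way, and Mfap5 stood at 0.013 with array weights. Signal over background limits the dim genes.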
